A study of Homo sapiens with 8 samples.

Results

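The genes described here are 10 factors of the pluripotent state: POU5F1, NANOG, ZFP42, DPPA2, DPPA4, PRDM14, SALL4, LIN28A, LIN28B and ZSCAN10. Their rows were picked by gene symbol, without use of measured values in the rule, and all 10 were found among the 19472 genes of the crowding table and the 19551 genes of the ETV4 knockdown table. RNA was measured by poly-A RNA sequencing in 8 libraries of H9, a widely used line of human embryonic stem cells (hESCs) grown on Matrigel, in 2 experiments with 2 libraries per group. In the crowding experiment, cells at high density (labelled crowded), confined to small Matrigel-coated areas for a few days, were compared with cells at low density (labelled small), with no genetic change in either. In the knockdown experiment, H9 hESCs carrying a lentiviral short hairpin RNA against ETV4 (shETV4, labelled ETV4 KD) were compared with cells carrying a control hairpin (shControl, labelled Ctrl). ETV4 is an ETS-family transcription factor. The hairpin used for these libraries is not given in the sources used here. The authors state in general that experiments were replicated or done independently. Whether the libraries of a group came from separate cultures is not given. The p-values thus measure the spread between these libraries, which may be technical. The libraries held 50359703 and 59957148 counts at low density, 55365694 and 62410168 in crowded cells, 55028105 and 52155822 with shControl, and 56630652 and 52790532 with shETV4.

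Pluripotent cells hold their state through a network in which POU5F1 (also known as OCT4) and NANOG bind shared enhancers and keep one another active. ZFP42 (REX1) and ZSCAN10 are zinc finger genes that mark undifferentiated cells, SALL4 joins the network and recruits the NuRD chromatin complex, and PRDM14 represses differentiation and germ layer genes. DPPA2 and DPPA4 lie side by side in the genome and act as a pair on CpG-rich promoters, including developmental ones, and LIN28A and LIN28B are RNA-binding proteins that block the maturation of let-7 microRNAs.

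On GRCh37, DPPA2 lies at chr3:109012635-109035364 and DPPA4 at chr3:109044991-109056393, both on the minus strand, with 9626 bases and no other annotated gene between them. The promoters of DPPA2 and DPPA4 are shown because DPPA2 was lower after ETV4 knockdown while the libraries of its neighbour DPPA4 overlapped. Changes of these neighbours were not tested against each other. That of NANOG is shown because NANOG was lower in both experiments. Each sequence is the 250 bases before the start site from RefSeq (GRCh38.p14), 5′ to 3′ on the strand of the gene, and capitals mark matches to 3 short motifs searched on both strands: CCGGAA, a core of ETS factor sites, and ATTTGCA and TTTGCAT, the first and last letters of the octamer that POU factors bind, which overlap one another in a full octamer.
DPPA2, chr3:109316518-109316767, minus strand: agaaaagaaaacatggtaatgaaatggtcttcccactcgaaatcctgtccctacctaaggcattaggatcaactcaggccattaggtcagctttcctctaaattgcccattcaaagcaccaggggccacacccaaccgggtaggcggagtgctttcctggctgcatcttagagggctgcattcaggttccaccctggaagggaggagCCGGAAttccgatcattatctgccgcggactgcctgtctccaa
DPPA4, chr3:109337547-109337796, minus strand: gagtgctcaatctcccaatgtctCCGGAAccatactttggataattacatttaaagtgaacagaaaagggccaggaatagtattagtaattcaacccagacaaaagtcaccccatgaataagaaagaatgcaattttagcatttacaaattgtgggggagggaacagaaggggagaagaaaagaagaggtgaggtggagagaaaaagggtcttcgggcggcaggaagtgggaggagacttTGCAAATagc
NANOG, chr12:7789152-7789401, plus strand: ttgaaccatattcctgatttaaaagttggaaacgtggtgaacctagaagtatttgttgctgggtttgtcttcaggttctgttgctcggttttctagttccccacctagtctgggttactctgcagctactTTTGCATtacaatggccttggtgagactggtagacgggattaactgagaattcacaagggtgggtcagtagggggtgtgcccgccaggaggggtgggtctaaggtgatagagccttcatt

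CCGGAA starts 43 bases before the DPPA2 start site and 227 bases before that of DPPA4. The reverse complement of ATTTGCA starts 10 bases before the DPPA4 start site, and TTTGCAT starts 120 bases before that of NANOG. Of the 10 genes, 6 matched the promoter table with 7 windows, each of 250 bases before and 50 bases after a start site, and the windows of ZFP42, LIN28B and ZSCAN10 held none of the motifs. The other genes were POU5F1, PRDM14, SALL4 and LIN28A. Among all 35116 promoters of that table, 17.2% held CCGGAA, 4.2% ATTTGCA and 4.46% TTTGCAT. These matches describe letters and are not evidence of binding. Other forms of ETS factor sites were not searched.

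The let-7 family, whose maturation the LIN28 proteins block, is shown by 1 mature sequence with its seed (bases 2 to 8) in capitals. All 9 mature members looked up share this seed. The libraries did not measure microRNAs.
hsa-let-7a-5p: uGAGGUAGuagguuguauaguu

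The label of the cells was checked first. POU5F1 stood at 1016 to 1405 FPKM (sequenced fragments scaled to transcript length and to mapped reads, a level per length) in the 8 libraries. All 29 analysed genes of a list of 30 markers of primed pluripotency and undifferentiated hESCs had a mean FPKM of at least 1 in both tables. That is a low bar, also reached by 12752 of the 17672 genes tested for crowding and 13036 of 17879 for knockdown. ETV4 itself was measured at 90.8 and 95.1 FPKM with shControl and at 45.6 and 40.9 FPKM with shETV4. Both shETV4 libraries were thus below both shControl libraries, and the log2 fold change was -1.15 (SE 0.07, edgeR adjusted p = 0.00016). ETV4 was also lower in crowded cells (54.2 and 53.9 FPKM) than at low density (73.2 and 72.6 FPKM), with a log2 fold change of -0.49 (SE 0.06, edgeR adjusted p = 9.42e-07).

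The 10 genes covered a wide range of levels. At low density the order by mean FPKM was POU5F1 at 1135 ± 32.0 (SD, n = 2), LIN28A at 442 ± 21.4, DPPA4 at 259 ± 0.72, ZFP42 at 96.1 ± 2.34, ZSCAN10 at 80.4 ± 3.76, SALL4 at 55.1 ± 2.30, PRDM14 at 44.7 ± 1.62, LIN28B at 31.3 ± 0.85, NANOG at 23.6 ± 0.88 and DPPA2 at 5.06 ± 0.32. No neighbours in that order had overlapping libraries. In crowded cells ZSCAN10 (87.0 ± 7.06) and ZFP42 (81.9 ± 5.73) exchanged places with overlapping libraries, and the same pair overlapped with shETV4 (78.8 ± 10.9 and 75.5 ± 3.38). With shControl, NANOG (26.4 ± 0.50) stood above PRDM14 (22.8 ± 1.41), and with shETV4 PRDM14 (28.8 ± 0.92) stood above NANOG (18.8 ± 2.89), in each case with libraries apart. POU5F1 ranked between places 30 and 46 of all genes by FPKM in the 8 libraries, while DPPA2 ranked between 5739 and 9557. The tables were normalized separately, so a difference between low density and shControl, such as that of PRDM14 (44.7 and 22.8 FPKM), cannot be told apart from a difference between the experiments.

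**Figure D1:**
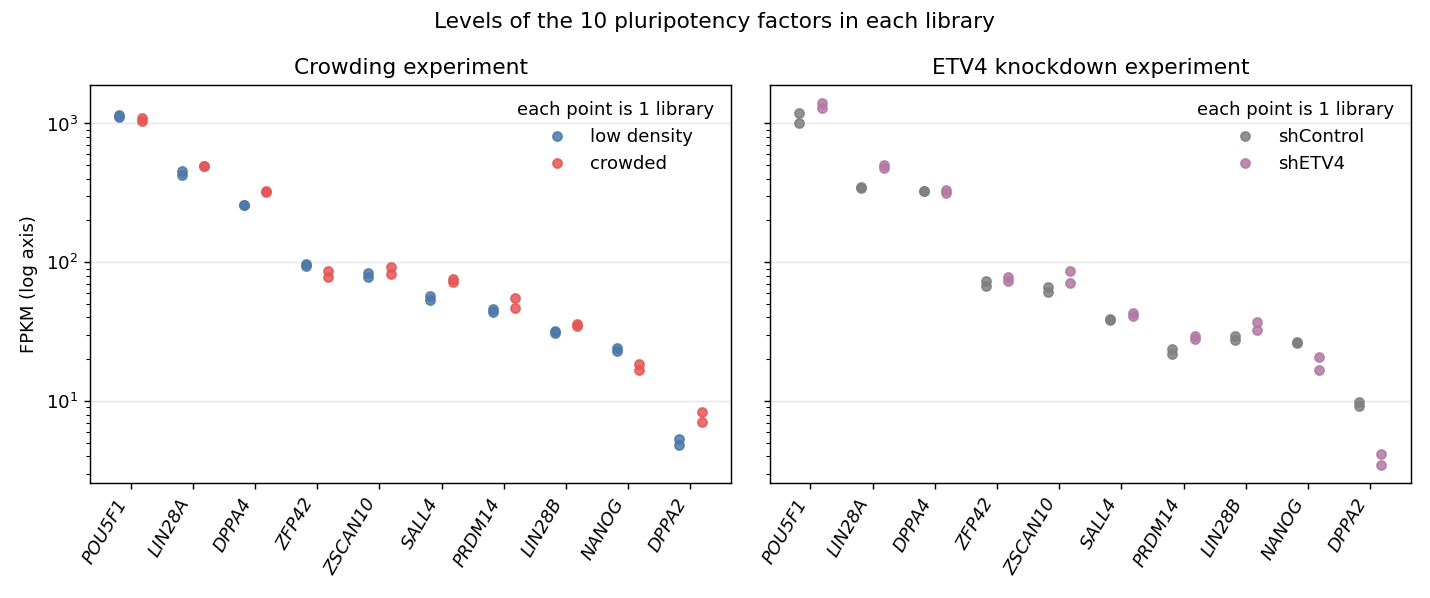
Levels (FPKM, log axis) of the 10 genes in each of the 8 libraries, 1 point per library, with the crowding experiment on the left and the ETV4 knockdown experiment on the right. POU5F1 is the highest gene in every library (1016 to 1405 FPKM) and DPPA2 the lowest (3.48 to 9.76 FPKM).

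Crowding changed most of these genes, but by small factors. By adjusted p below 0.05 (edgeR quasi-likelihood test, Benjamini-Hochberg over the 17672 genes tested), 4 of the 10 genes rose (DPPA2, SALL4, DPPA4 and LIN28A) and 3 fell (NANOG, ZFP42 and POU5F1), against 19.4% of all genes tested that rose and 20.3% that fell. Under the stricter rule for a differentially expressed gene (DEG), an adjusted p below 0.05 with an absolute log2 fold change over 0.5, DPPA2 alone was called, as higher, beside 10.7% of all genes that were higher DEGs. None of the 10 was a lower DEG by edgeR or by DESeq2, beside 5.47% of all genes, and 3 were lower at an unadjusted p below 0.05. Median log2 fold change was 0.11 over the 10 genes and 0.00 over all genes.

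Among the core transcription factors, NANOG fell and POU5F1 moved little. NANOG was at 24.2 and 22.9 FPKM at low density and at 16.6 and 18.5 FPKM in crowded cells. Both crowded libraries were below both low-density libraries, a log2 fold change of -0.46 (SE 0.06, edgeR adjusted p = 3.36e-06), which is 1.38 times lower. Without crowded replicate 2 the log2 fold change was -0.52, past the DEG threshold. POU5F1 was at 1158 and 1112 FPKM at low density and at 1094 and 1045 FPKM in crowded cells. Its libraries did not overlap, and the log2 fold change was -0.14 (SE 0.04, edgeR adjusted p = 0.0134), a fall of 9.44%. That call did not hold without low-density replicate 1 (edgeR adjusted p = 0.206) or on the FPKM scale. The ratio of POU5F1 to NANOG in FPKM was 47.9 and 48.5 at low density and 65.8 and 56.4 in crowded cells.

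ZFP42, a marker gene that is lost early when pluripotent cells differentiate, was at 94.4 and 97.8 FPKM at low density and at 85.9 and 77.8 FPKM in crowded cells. Both crowded values were lower, with a log2 fold change of -0.30 (SE 0.06, edgeR adjusted p = 0.000445). ZSCAN10 was at 77.7 and 83.0 FPKM at low density and at 92.0 and 82.0 FPKM in crowded cells. These libraries overlapped, and its log2 fold change of 0.04 (95% interval -0.09 to 0.17, edgeR adjusted p = 0.65) turned negative without low-density replicate 1 or crowded replicate 1.

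The DPPA pair rose together under crowding, from very different levels. DPPA2 was at 4.84 and 5.29 FPKM (385 and 507 counts) at low density and at 7.11 and 8.33 FPKM (617 and 825 counts) in crowded cells. The groups did not overlap, and the log2 fold change was 0.55 (SE 0.12, edgeR adjusted p = 0.000918), 1.46 times higher. Leaving out low-density replicate 1 gave 0.49 and leaving out crowded replicate 2 gave 0.44, both under the DEG threshold with an adjusted p still below 0.05. DPPA4 was at 259 and 260 FPKM at low density and at 323 and 329 FPKM in crowded cells. Replicates lay close together and groups far apart, with a log2 fold change of 0.28 (SE 0.05, edgeR adjusted p = 5.07e-05).

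SALL4, whose protein links the network to histone deacetylases, was at 56.7 and 53.5 FPKM at low density and at 75.8 and 72.4 FPKM in crowded cells. Both crowded libraries were higher, with a log2 fold change of 0.38 (SE 0.05, edgeR adjusted p = 1.16e-05). PRDM14 was at 45.8 and 43.5 FPKM at low density and at 55.4 and 47.2 FPKM in crowded cells. On the normalized count scale its libraries overlapped, and the log2 fold change of 0.14 (95% interval -0.0038 to 0.29) did not pass the test (edgeR adjusted p = 0.114). Without crowded replicate 2 it was 0.26 (edgeR adjusted p = 1.97e-05) and without crowded replicate 1 it was 0.02 (edgeR adjusted p = 0.838).

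LIN28A was at 457 and 427 FPKM at low density and at 497 and 496 FPKM in crowded cells. Crowded libraries were higher, but the log2 fold change was only 0.11 (SE 0.04, edgeR adjusted p = 0.0492). The call was lost in 5 of 13 alternatives, among them DESeq2 (adjusted p = 0.106), and without low-density replicate 2 the edgeR adjusted p was 0.469. LIN28B was at 30.7 and 31.9 FPKM at low density and at 34.6 and 35.6 FPKM in crowded cells. Its log2 fold change was of the same size, 0.11 (95% interval -0.01 to 0.23), and did not pass (edgeR adjusted p = 0.13). By limma on log2(FPKM + 0.5) it was 0.16 and passed (adjusted p = 0.0429), and it passed with both other pseudocounts tried but not without an FPKM minimum (limma adjusted p = 0.0599). LIN28A stood 13.4 to 14.9 times above LIN28B in FPKM in these 4 libraries.

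ETV4 knockdown was read in the same way. By adjusted p below 0.05 (edgeR, over the 17879 genes tested), 3 of the 10 rose (LIN28A, PRDM14 and LIN28B) and 2 fell (DPPA2 and NANOG), against 10.6% of all genes that rose and 10.9% that fell. As DEGs, LIN28A was higher and DPPA2 lower, beside 5.88% and 7.1% of all genes. The median log2 fold change was 0.20 over the 10 genes and 0.00 over all genes. Read by library, 8 of the 10 genes had groups that did not overlap in each experiment, beside 70.7% of all genes tested after crowding and 64.9% after knockdown, so this count was close to the background.

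DPPA2 showed the largest change of the 10 genes. It was at 9.16 and 9.76 FPKM (794 and 787 counts) with shControl and at 4.15 and 3.48 FPKM (352 and 283 counts) with shETV4. Both shETV4 libraries were far below both shControl libraries, and the log2 fold change was -1.31 (SE 0.14, edgeR adjusted p = 0.00102), 2.47 times lower. Of all genes tested, 2.95% had a larger absolute log2 fold change. With each library left out in turn the log2 fold change of DPPA2 lay between -1.41 and -1.21, and the edgeR adjusted p stayed at or below 0.000351. DPPA4, its neighbour, was at 328 and 328 FPKM with shControl and at 334 and 315 FPKM with shETV4. The groups overlapped, and its log2 fold change was -0.02 (95% interval -0.17 to 0.13, edgeR adjusted p = 0.857). The ratio of DPPA4 to DPPA2 in FPKM was 35.8 and 33.6 with shControl and 80.5 and 90.4 with shETV4, whereas it was 53.5 and 49.1 at low density and 45.5 and 39.5 in crowded cells.

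**Figure D2:**
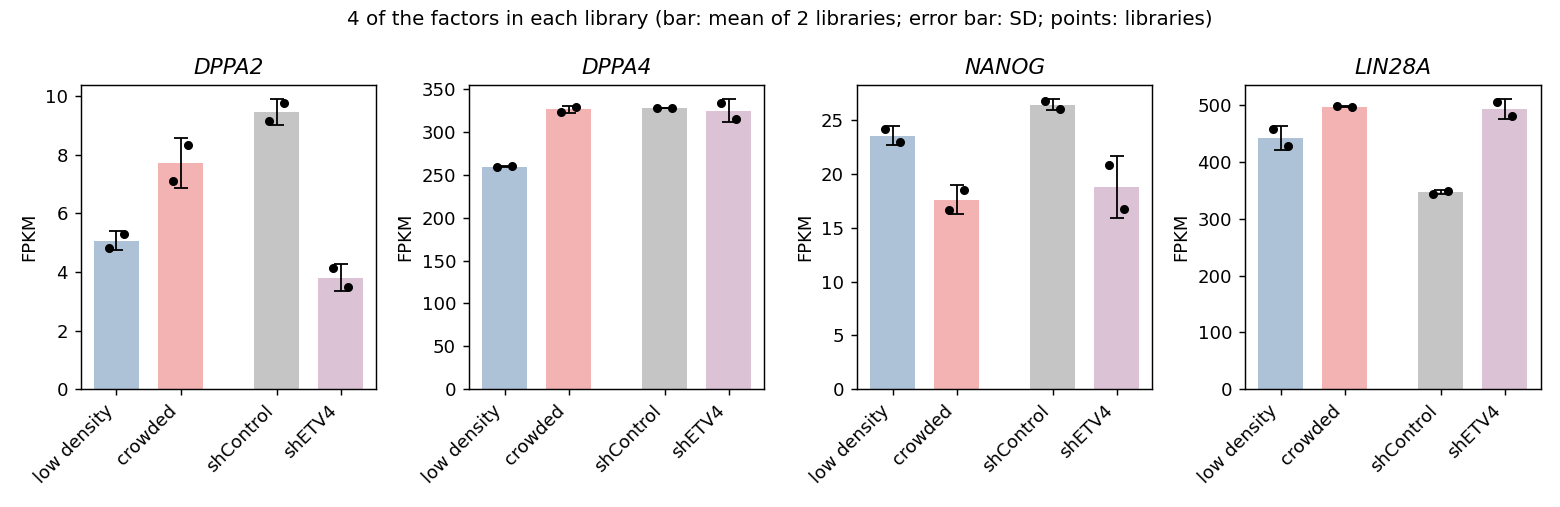
DPPA2, DPPA4, NANOG and LIN28A in FPKM in the 4 groups (bars are means of 2 libraries, error bars SD, points single libraries, axes from 0). DPPA2 is higher in crowded cells and lower with shETV4, DPPA4 is higher in crowded cells and overlaps between shControl and shETV4, NANOG is lower in both, and LIN28A is higher with shETV4.

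NANOG was at 26.8 and 26.1 FPKM with shControl and at 20.8 and 16.8 FPKM with shETV4. Both shETV4 libraries were lower, and they differed from each other more than the shControl libraries did. The log2 fold change was -0.44 (SE 0.10, edgeR adjusted p = 0.0165), and it was -0.58 without shETV4 replicate 1, past the DEG threshold. POU5F1 was at 1016 and 1181 FPKM with shControl and at 1288 and 1405 FPKM with shETV4. The shETV4 libraries were the higher ones, but the log2 fold change of 0.30 (95% interval 0.09 to 0.51) narrowly missed the threshold (edgeR adjusted p = 0.0505), and with DESeq2 it passed (adjusted p = 0.0202). It also passed without shControl replicate 2 (0.41, edgeR adjusted p = 0.032) or shETV4 replicate 1 (0.39, edgeR adjusted p = 0.00558), and was 0.21 without shControl replicate 1 (edgeR adjusted p = 0.396) or shETV4 replicate 2 (edgeR adjusted p = 0.119). The ratio of POU5F1 to NANOG in FPKM was 38.0 and 45.3 with shControl and 61.8 and 83.8 with shETV4.

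LIN28A was at 344 and 349 FPKM with shControl and at 504 and 480 FPKM with shETV4. Replicates were close and the groups well apart, with a log2 fold change of 0.51 (SE 0.06, edgeR adjusted p = 0.00228), 1.42 times higher and just past the DEG threshold. LIN28B was at 29.7 and 27.4 FPKM with shControl and at 37.1 and 32.5 FPKM with shETV4. It rose by 0.29 on the log2 scale (SE 0.08, edgeR adjusted p = 0.0387), a call lost without either shControl library, without shETV4 replicate 1, without a filter on low counts and on the FPKM scale. LIN28A stood 11.6 and 12.7 times above LIN28B with shControl and 13.6 and 14.7 times with shETV4.

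PRDM14 was at 21.8 and 23.8 FPKM with shControl and at 28.1 and 29.4 FPKM with shETV4. It was higher in both shETV4 libraries, with a log2 fold change of 0.34 (SE 0.09, edgeR adjusted p = 0.027), which did not pass without shControl replicate 1 (adjusted p = 0.267) or shControl replicate 2 (adjusted p = 0.0743). ZSCAN10 was at 61.4 and 65.9 FPKM with shControl and at 71.1 and 86.6 FPKM with shETV4. Its log2 fold change of 0.32 (95% interval 0.07 to 0.58) missed the threshold by edgeR (adjusted p = 0.0727) and passed by DESeq2 (adjusted p = 0.0297). It was 0.49 without shETV4 replicate 1 (edgeR adjusted p = 0.000746) and 0.14 without shETV4 replicate 2 (edgeR adjusted p = 0.232). SALL4 (38.4 and 39.2 FPKM with shControl, 43.4 and 41.1 with shETV4) had a log2 fold change of 0.12 (95% interval -0.04 to 0.27), and ZFP42 (67.4 and 73.4 FPKM, 73.1 and 77.9) one of 0.10 (95% interval -0.09 to 0.29). Neither passed the test, with edgeR adjusted p = 0.246 and 0.41.

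**Figure D3:**
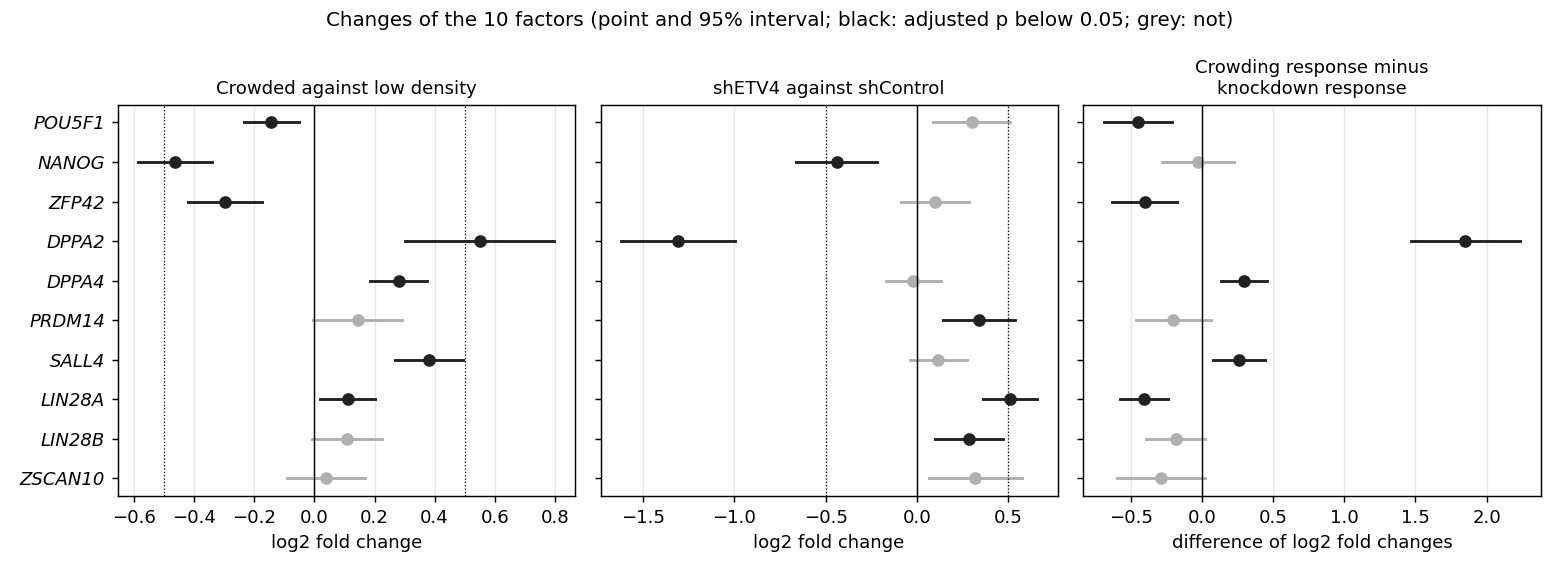
Log2 fold changes of the 10 genes with 95% intervals for crowding (left) and ETV4 knockdown (middle), and the difference of these responses (right), with black for an adjusted p below 0.05, grey for the others and dotted lines at 0.5 and -0.5. DPPA2 stands at 0.55 after crowding and -1.31 after knockdown, while NANOG stands at -0.46 and -0.44.

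Since crowding lowered ETV4 RNA too, though less (log2 fold change -0.49) than knockdown did (-1.15), the responses were set against each other. The authors attribute the drop of ETV4 protein in crowded cells to reduced protein stability, and protein was not measured here. The raw counts of all 8 libraries were fitted together, with 1 mean per group, and the crowding response minus the knockdown response was tested for the 17790 genes that passed the filter on low counts in this joint fit, of 18679 present in both tables. Responses differed for 6 of the 10 genes, against 38.5% of all genes. DPPA2 differed most, by 1.85 (SE 0.18, edgeR adjusted p = 1.55e-05) on the log2 scale, with opposite directions in the experiments. DPPA4 differed by 0.29 (adjusted p = 0.00781) and SALL4 by 0.26 (adjusted p = 0.0282), both more positive under crowding by edgeR. POU5F1 differed by -0.45 (edgeR adjusted p = 0.00664), LIN28A by -0.41 (edgeR adjusted p = 0.00163) and ZFP42 by -0.40 (edgeR adjusted p = 0.00948), all more positive after knockdown. The SALL4 difference missed the threshold without low-density replicate 1 or 2, crowded replicate 1 or shControl replicate 1 or 2, with edgeR adjusted p of up to 0.135, and that of ZFP42 without crowded replicate 2 or shControl replicate 1 (edgeR adjusted p = 0.0556 and 0.0507).

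For NANOG, the responses differed by -0.03 (95% interval -0.28 to 0.22, edgeR adjusted p = 0.869), and this sign turned without crowded replicate 1 or shETV4 replicate 1. PRDM14 (-0.20, 95% interval -0.47 to 0.06), LIN28B (-0.18, 95% interval -0.39 to 0.02) and ZSCAN10 (-0.29, 95% interval -0.59 to 0.02) did not pass either, with edgeR adjusted p of 0.215, 0.147 and 0.127. The ZSCAN10 difference was -0.46 without shETV4 replicate 1 (edgeR adjusted p = 0.0011) and -0.10 without shETV4 replicate 2, and that of LIN28B was -0.25 and passed without shETV4 replicate 2 (edgeR adjusted p = 0.0437). The experiments had their own controls and were not run as one design, so anything that differs between them besides crowding and knockdown cannot be told apart from these differences.

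Some of the genes share sequence or position with others, which bears on their counts. NANOG has near copies in the genome. The retrogene NANOGP8 held counts equal to 41.2% to 45.1% of those of NANOG in the crowding libraries and 31.9% to 39.7% in the knockdown libraries, and NANOGP1 held at least 8.16% in all 8. NANOGP8 moved as NANOG did, with log2 fold changes of -0.40 (edgeR adjusted p = 5.01e-05) after crowding and -0.38 (edgeR adjusted p = 0.0214) after knockdown. The split of reads between these copies is uncertain. Copies of POU5F1 held little, with POU5F1P3 at 1.69% to 2.67% of POU5F1 counts and POU5F1B at 0.157% to 0.32%. On GRCh37 the span of TCF19, on the other strand, meets exons of POU5F1 (chr6:31132114-31148508, minus strand). Likewise, the span of LIN28B-AS1 meets exons of LIN28B (chr6:105384491-105531207, plus strand). PSORS1C3, on the strand of POU5F1, and other genes at LIN28B overlap these genes without meeting their exons. The strand setting of the read counting is not given in the sources used here, so the overlaps with TCF19 and LIN28B-AS1 leave the counts of both genes uncertain. The others lie at chr12:7940390-7951742 (NANOG, plus strand), chr4:188916925-188926200 (ZFP42, plus), chr20:50398870-50419060 (SALL4, minus), chr1:26737308-26756219 (LIN28A, plus), chr8:70963886-70983928 (PRDM14, minus) and chr16:3138891-3149296 (ZSCAN10, minus), none overlapping another annotated gene.

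Naive pluripotency genes, active in the preimplantation epiblast, had a mean FPKM of at least 1 for 9 of 15 genes in the crowding table and 8 of 16 in the knockdown table. Of 15 tested after crowding, 5 were higher and 2 lower DEGs, and of 16 tested after knockdown, 1 was higher and 4 lower. The count of 2 fell to as few as 0 and moved in 8 of 13 alternatives. The median log2 fold changes were 0.28 and 0.01. Among all genes tested, 10.7% were higher and 5.47% lower DEGs after crowding, and 5.88% and 7.1% after knockdown. No list was tested against these shares. FGF4, a growth factor of the early epiblast, was at 1.12 FPKM at low density and 5.97 FPKM in crowded cells (log2 fold change 2.36, SE 0.11). DPPA5, an RNA-binding protein of the pluripotent embryo, rose by 1.19 (SE 0.23) after crowding, and SUSD2, a surface marker of naive cells, by 1.16 (SE 0.14). TFAP2C, a transcription factor of naive and germ cells, rose by 0.61 (SE 0.08), and NR5A2, a nuclear receptor, fell by 0.81 on the log2 scale. After knockdown DPPA5 fell by 1.74 on the log2 scale (SE 0.31), TFCP2L1, a naive transcription factor, by 1.05 (SE 0.19) and SUSD2 by 0.99 (SE 0.19), while KLF4 rose by 1.21 (SE 0.23). TFCP2L1 (0.60 after crowding) and FGF4 (-1.41 after knockdown, at a mean of 0.28 FPKM with shETV4) are given after their values were seen. Together with DPPA5 and SUSD2 they were, like DPPA2, DEGs in both experiments with opposite signs. KIT, of the germ cell list, was too (0.59 after crowding and -0.68 after knockdown), and the share of all genes with opposite calls was not counted. STAT3, the most abundant gene of the list, was not called in either experiment. KLF17, a defining naive marker, was not analysed here.

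Primed pluripotency genes mark the state of conventional hESCs, which resembles the later epiblast. Of 29 tested, 2 were higher and 3 lower DEGs after crowding, and 2 were higher and 9 lower after knockdown, with medians of 0.00 and -0.05. Beside them stand 10.7% higher and 5.47% lower DEGs among all genes after crowding, and 5.88% and 7.1% after knockdown. ESRG, a noncoding RNA of hESCs, rose under crowding (0.63, SE 0.04). LEFTY1, LEFTY2 and NODAL, ligand and inhibitors of the NODAL pathway, were lower DEGs in both experiments, with log2 fold changes of -1.90, -1.78 and -1.67 after crowding and -2.95, -1.89 and -1.66 after knockdown. LEFTY1 and LEFTY2 are close paralogs, so the split of their reads is uncertain. After knockdown GDF3 also fell, by 0.83 on the log2 scale, and OTX2 (2.73, SE 0.13) and ZIC2 (0.95, SE 0.09) rose, both transcription factors of the primed epiblast and anterior neural fate. DNMT3B, the de novo DNA methyltransferase that was the most abundant gene of the list in the crowding table (802 FPKM at low density), was a lower DEG after knockdown (357 to 202 FPKM, log2 fold change -0.82). Its value is given after it was seen, as is that of TDGF1, the NODAL co-receptor, which fell from 337 to 190 FPKM.

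LIN28 and let-7 oppose each other, and let-7 targets include growth and cell cycle genes. Of 25 genes that are targets of let-7 or take part in its processing, 2 were higher DEGs after crowding, beside 10.7% of all genes. None was lower by edgeR or DESeq2, beside 5.47% of all genes. By adjusted p alone 5 of the 25 were higher and 6 lower, beside 19.4% and 20.3% of all genes. The count of 2 fell to 1 in 6 of 13 alternatives. IGF2BP3, an RNA-binding let-7 target, rose from 51.3 to 91.8 FPKM (log2 fold change 0.78, SE 0.05). After knockdown, where LIN28A rose, none was a DEG by edgeR, with 5 higher and 2 lower by adjusted p alone and 6 higher and 4 lower at an unadjusted p below 0.05, and DESeq2 called 1 lower DEG. The count of lower DEGs after knockdown reached as many as 2 and moved in 8 of 13 alternatives. TRIM71, a let-7 target, lay at the fold threshold (log2 fold change -0.499, SE 0.09, edgeR adjusted p = 0.00808), and its value is given after it was seen. HMGA1, a chromatin protein and the most abundant gene of the list, was at 1052 and 1099 FPKM with shControl and at 1321 and 1401 FPKM with shETV4 (log2 fold change 0.34, SE 0.07, edgeR adjusted p = 0.0151). The medians of the list were -0.03 and -0.04. After knockdown, 5.88% of all genes were higher and 7.1% lower DEGs, and 10.6% and 10.9% passed by adjusted p alone.

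SALL4 has 3 paralogs in the family and partners in the NuRD complex, which removes acetyl groups from histones and remodels nucleosomes. Beside 10.7% of all genes, 3 of these 18 were higher DEGs after crowding, among them SALL3 (1.07, SE 0.07) and CHD3 (0.61, SE 0.09). None was a lower DEG by edgeR or DESeq2, beside 5.47% of all genes, with 3 lower at an unadjusted p below 0.05. By adjusted p alone 8 were higher and 3 lower, beside 19.4% and 20.3% of all genes. The count of 3 higher DEGs fell to 2 by limma on log2(FPKM + 0.5) and to 1 on log2(FPKM + 1). Of 13 alternatives, 1 moved the count of lower DEGs. After knockdown none was a DEG by edgeR or DESeq2, with 3 higher and 2 lower by adjusted p alone. At an unadjusted p below 0.05, 4 were higher and 3 lower. Of 13 alternatives, 2 moved the count of higher DEGs after knockdown and 1 that of lower DEGs. RBBP7, a histone-binding NuRD subunit, was the most abundant there (134 and 121 FPKM) and did not pass. The medians were 0.02 and 0.01. After knockdown, 5.88% of all genes were higher and 7.1% lower DEGs, and 10.6% and 10.9% passed by adjusted p alone.

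Among early germ cell genes and partners of PRDM14, 4 of 12 were higher and 1 lower DEGs after crowding, and 2 were higher and 2 lower after knockdown, with medians of 0.45 and 0.12. Over all genes the shares were 10.7% higher and 5.47% lower after crowding, and 5.88% and 7.1% after knockdown. The 1 lower DEG after crowding, PRDM1, was at 0.104 FPKM at low density and 0.0443 FPKM in crowded cells and was named after its value was seen. That count went to 0 in 8 of 13 alternatives. The 2 lower DEGs after knockdown ranged from 1 to 3 and moved in 4 of 13. CBFA2T2, the co-repressor that binds PRDM14, rose by 0.80 (SE 0.07) after crowding, and KIT (0.59) and DAZL (0.53) rose with TFAP2C, which also stands in the naive list. After knockdown DAZL (1.30, SE 0.19) and SOX15 (1.05, SE 0.19) rose and KIT fell by 0.68 on the log2 scale. In mouse cells DPPA2 and DPPA4 are known to act upstream of genes that switch on when the embryonic genome is first activated. Of 23 such human genes 2 were analysed here. CCNA1 rose from 0.75 to 2.06 FPKM after crowding (log2 fold change 1.34, SE 0.21) and had a log2 fold change of -0.71 after knockdown that did not pass (edgeR adjusted p = 0.0734). SLC34A2 fell by 1.07 on the log2 scale after crowding (from 0.73 to 0.36 FPKM) and rose by 0.78 (SE 0.22, edgeR adjusted p = 0.0409) after knockdown, a call lost in 7 of 13 alternatives. The CCNA1 value after knockdown and the SLC34A2 value after crowding are given after they were seen.

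**Figure D4:**
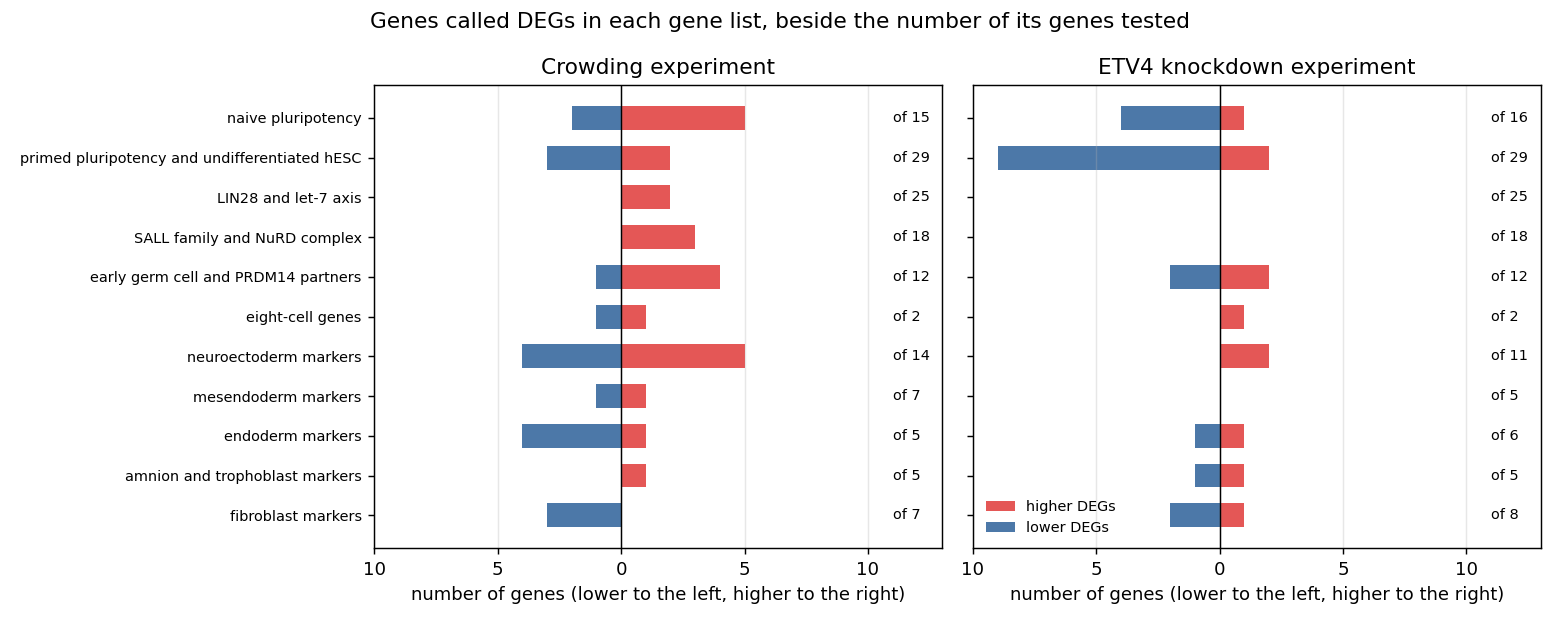
Number of higher DEGs (right, red) and lower DEGs (left, blue) in each gene list, beside the number of its genes tested, for crowding and ETV4 knockdown. The primed list has 9 lower DEGs after knockdown and 3 after crowding, and the naive list 5 higher DEGs after crowding and 4 lower after knockdown. Among all genes tested, higher and lower DEGs made up 10.7% and 5.47% after crowding, and 5.88% and 7.1% after knockdown.

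Markers of other cell types were read beside these results, as RNA of a mixed culture cannot tell fewer cells of a type from less RNA per cell. For all these marker lists, the shares over all genes were 10.7% higher and 5.47% lower DEGs after crowding. After knockdown they were 5.88% and 7.1%. Of 14 neuroectoderm markers tested after crowding, 5 were higher and 4 lower DEGs, and of 11 after knockdown, 2 were higher and none lower by edgeR, by DESeq2 or at an unadjusted p below 0.05. Their summed level was 100 and 98.4 FPKM at low density, 73.6 and 68.8 in crowded cells, 65.2 and 70.4 with shControl, and 83.8 and 92.2 with shETV4. NES, an intermediate filament gene also expressed by hESCs, made up most of it, and after crowding NES (-0.55, SE 0.05) and the cadherin CDH2 (-1.53, SE 0.07) fell. SIX6, a transcription factor of the eye field, fell from 1.05 to 0.243 FPKM (log2 fold change -2.15, SE 0.26, edgeR adjusted p = 1.57e-06). SOX21 rose from 0.47 to 5.94 FPKM after crowding (log2 fold change 3.61), and FEZF1 (1.38, SE 0.28) and the zinc finger gene ZNF521 (0.70, SE 0.17) rose as well. SOX21 and FEZF1 were also higher after knockdown, by 1.49 and 2.89, where ZNF521 did not pass (-0.32, edgeR adjusted p = 0.277). NES (0.39, edgeR adjusted p = 0.0185) and CDH2 (0.27, edgeR adjusted p = 0.0452) rose after knockdown, below the fold threshold for a DEG. The 4 lower DEGs after crowding fell to as few as 2 and moved in 5 of 13 alternatives. PAX6, a defining neural marker, was at a mean of 0.021 FPKM at low density and 0.0078 FPKM in crowded cells. A mean FPKM of at least 1 was reached by 3 of 15 neuroectoderm markers in the crowding table and 3 of 14 in the knockdown table.

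Of 5 endoderm markers tested after crowding, 1 was a higher and 4 were lower DEGs, and of 6 after knockdown, 1 was higher and 1 lower. Their summed level was 4.08 and 4.74 FPKM at low density and 1.38 and 1.24 in crowded cells, with CER1 the most abundant at low density, which was a lower DEG after crowding (-3.53, SE 0.29) and, narrowly, after knockdown (-1.09, SE 0.33, edgeR adjusted p = 0.048). The count of lower endoderm DEGs fell to as few as 1 after crowding, moving in 6 of 13 alternatives, and went to 0 after knockdown in 4 of 13. The count of higher DEGs went to 0 in 4 of 13 after crowding and in 5 of 13 after knockdown. With shControl the sum was 2.56 and 3.57 FPKM and with shETV4 1.78 and 2.46. Only 1 of 9 endoderm genes in the crowding table and 1 of 7 in the knockdown table, CER1 in each, had a mean FPKM of at least 1. The other lower DEGs after crowding were low: FOXA2 (0.231 to 0.0331 FPKM), CXCR4 (0.272 to 0.114) and PRDM1 (0.104 to 0.0443). So was the higher one, HHEX (0.105 to 0.684 FPKM). These genes were named after their values were seen, and PRDM1 also stands in the naive and germ cell lists. Of 7 mesendoderm markers tested after crowding, TBX6 was a higher (1.75) and WNT3 a lower (-2.14) DEG, and of 5 after knockdown none was a DEG by edgeR or DESeq2, with 2 lower at an unadjusted p below 0.05. Their sums stayed between 2.38 and 3.98 FPKM in the 8 libraries, and TBXT, the defining gene of the primitive streak, was at or below a mean of 0.085 FPKM in every group.

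Amnion and trophoblast markers gave 1 higher DEG of 5 after crowding (IGFBP3, 0.67). Of 5 after knockdown, 1 was higher (IGFBP3, 0.72), a call lost in 2 of 13 alternatives, and 1 lower (GABRP, -1.33). None was lower after crowding by edgeR, by DESeq2 or at an unadjusted p below 0.05. Their summed level was 4.93 and 5.44 FPKM at low density, 7.79 and 7.75 in crowded cells, 8.50 and 8.48 with shControl, and 6.83 and 6.21 with shETV4. Of 7 fibroblast markers tested after crowding, 3 were lower DEGs and none was higher by edgeR, by DESeq2 or at an unadjusted p below 0.05, and of 8 after knockdown 1 was higher and 2 lower, a count of lower DEGs that ranged from 1 to 3 and moved in 6 of 13 alternatives. THY1, which hESCs also express, led this list, falling from 79.2 to 53.3 FPKM after crowding and from 118 to 67.5 FPKM after knockdown. PDGFRB fell by 1.58 and 0.54 on the log2 scale, and COL1A1 rose by 1.00 after knockdown. The summed level of the list was 118 and 121 FPKM at low density, 85.2 and 86.1 in crowded cells, 157 and 159 with shControl, and 129 and 119 with shETV4. The part of other cell types in the changes of the 10 genes was not tested.

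Across all 8 libraries, after centring each experiment on its own mean, the genes with the pattern most like that of DPPA2 among 12475 genes were LDB2 (Pearson r = 0.997), KLHDC2 (r = 0.995) and HVCN1 (r = 0.994). LDB2 had log2 fold changes of 0.72 after crowding and -1.92 after knockdown, KLHDC2 of 0.10 and -0.25, and HVCN1 of 0.45 and -0.99. The correlation does not measure the size of a change. Closest to LIN28A were DCLK1 (r = 0.990), TRAIP (r = 0.990) and DHX40 (r = 0.990). DCLK1 had log2 fold changes of 0.33 and 1.32, TRAIP of 0.10 and 0.36, and DHX40 of 0.10 and 0.57. These values describe 8 libraries that share groups and were picked as the highest of many.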

How the data were processed

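The authors prepared stranded poly-A libraries, trimmed paired reads of 100 bases with Trimmomatic, mapped them to GRCh37 with HISAT2 2.1.0 and assembled known transcripts with StringTie 2.1.3b (tool names from the submitters' processing notes). They deposited 1 table per experiment, normalized separately, with read counts per gene (not normalized) and FPKM per gene. Both hold only genes with at least 1 read in every library, so a gene silent in a library was not analysed here. The authors' fold changes and p-values, and 16 other per-sample columns (TPM and normalized values), were not used.

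Counts were tested with edgeR 4.0.16 (R 4.3.3: filterByExpr, TMM, robust quasi-likelihood test), and p-values were adjusted over all genes tested (Benjamini-Hochberg). Standard errors and 95% intervals come from the fit. The difference between the responses was fitted on the raw counts of the 8 libraries. FPKM means and SDs are from 2 libraries. The biological coefficient of variation was 6.83% for crowding and 9.93% for knockdown, and for genes with few counts, such as DPPA2, counting error adds to this spread. By permutation, 2 libraries against 2 cannot go below p = 0.333 (exact, two-sided). Replicates of each group differed by more than sampling noise. The fits were also run on simulated data, and the outcome of that run is not reported here. DESeq2 1.42.0, limma 3.58.1 on log2(FPKM + 0.5), other size factors and filters, and leaving out each library were tried. Positions come from GENCODE 44 lifted to GRCh37, promoters and microRNAs from RefSeq, and coordinates were not converted between builds.

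The 10 members and the 11 gene lists were chosen with earlier results of these data known. Named from each list and experiment were up to 4 DEGs in each direction with the largest changes and a mean FPKM of at least 1 in a group, otherwise the most abundant gene. Also named were near copies of the members by symbol and, for members that were DEGs, the 3 genes with the highest Pearson correlation of centred log2 CPM (mean FPKM of at least 1 in both tables). Other genes are marked where named. Of the genes picked in this way, 1 is not reported here.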

Additional observations from a re-analysis of the deposited data

How the results depend on the processing

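Every one of the 13 alternatives to each experiment's fit kept DPPA2 on its side of the adjusted p threshold, with log2 fold changes of 0.44 to 0.65 for crowding and -1.41 to -1.12 for knockdown, and NANOG at -0.52 to -0.40 and -0.58 to -0.31. LIN28A after knockdown stayed between 0.50 and 0.52. Counting members by adjusted p alone in place of the DEG rule gave 4 higher and 3 lower after crowding, and 3 higher and 2 lower after knockdown. With an absolute log2 fold change over 1, the higher DEGs went to 0 in both experiments and DPPA2 stayed the 1 lower DEG after knockdown. The 3 genes that rose after knockdown by adjusted p became 5 with DESeq2 and 5 with the replicate block, which added POU5F1 (0.30) and ZSCAN10 (0.31), and 1 by limma on log2(FPKM + 0.5) without an FPKM minimum. The replicate numbers did not pair the libraries (correlations of deviations of -0.041 and 0.0856), and the block changed no other call of the 10 genes within an experiment. It brought the difference for LIN28B (-0.18) past the threshold. Leaving out each library in turn gave 0 to 1 higher and 0 to 1 lower DEGs after crowding, 1 to 2 lower DEGs after knockdown and 1 to 4 genes that rose by adjusted p after knockdown, the lowest without shControl replicate 1. It turned the sign of ZSCAN10 after crowding (range -0.0528 to 0.1294) and of the NANOG difference (range -0.1547 to 0.1078). List counts under the same DEG rule ranged from 4 to 5 higher naive genes after crowding, 3 to 4 lower after knockdown, 8 to 10 lower primed genes after knockdown, 1 to 4 lower endoderm markers and 2 to 6 higher neuroectoderm markers after crowding. The cause of these shifts was not tested. DPPA2, with 283 to 825 counts per library, is the member most limited by depth.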
